A study of Saccharomyces cerevisiae with 8 samples.

Results

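The 5′ and central domains of 18S rRNA, nucleotides 1 to 1149 of the RNA of the small ribosomal subunit, were followed in preparations of large ribosomal subunit (LSU) precursors from the yeast Saccharomyces cerevisiae. The region was chosen by position alone, as all rows of 18S rRNA with these numbers, and it made up 1149 of the 10000 nucleotides tabulated for each purification. In the R64 genome the first annotated copy, RDN18-1, lies on the reverse strand of chromosome XII from 455933 to 457732 and is 1800 nucleotides long, and the region covers 456584 to 457732 of it. In the study, a calcium dependent nuclease (micrococcal nuclease, MNase) was fused to single proteins of the large subunit, the precursors were affinity purified, calcium was added, and rRNA 5′ ends were mapped by random primer extension and sequencing.

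There were 8 libraries, 1 per condition. Of these conditions, 4 (25S-preLSUs) were purified through chromosomally TAP tagged Lsg1, a factor of late, cytoplasmic precursors, from 2 litres of culture. The other 4 (27SB-preLSUs) were purified through TAP tagged Noc3, a factor of earlier, nuclear precursors, from 6 litres of culture. For each purification, 3 strains made rpL5, rpL27 or rpL35 only as an MNase fusion encoded on a plasmid, with the chromosomal gene copies of that protein deleted, and the remaining strain carried no MNase and the native proteins. All 8 strains thus carried a TAP tag, and all purified particles were given calcium. Because each condition was a single library, values have no spread between replicates, and stops were described by fixed rules of size. The purifications could be tested only by taking the 4 kinds of library as pairs, although these differ in their nuclease. An exact two-sided permutation test over the signs of 4 pairs cannot go below p = 0.125, so no difference at a single stop could pass a threshold of 0.05.

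18S rRNA belongs to the small subunit and is separated from the large subunit RNAs early in ribosome synthesis, so it is not part of an LSU precursor. Whether the co-purified 18S rRNA came from 40S subunits, 80S ribosomes or earlier particles cannot be told apart in these libraries. Mature yeast 18S rRNA carries many 2′-O-methyl groups, which are placed under the guidance of box C/D small nucleolar RNAs, and pseudouridines, which are placed under the guidance of box H/ACA RNAs. Reverse transcriptase copies RNA from its 3′ side and can pause before a 2′-O-methylated nucleotide, which leaves a stop at the nucleotide directly 3′ of it. Such stops need no nuclease, whereas a cut by MNase leaves a new 5′ end at which every cDNA must stop.

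The deposited value at each nucleotide is the termination to coverage ratio (TCR), that is, of the cDNA fragments that span a nucleotide, the fraction whose end lies on it, given here in percent. Unless a single nucleotide is named, a value is the TCR of a window of 3 nucleotides, that is, the probability of a stop at the central nucleotide or at either neighbour. A window was called strong at a TCR of at least 15% and over 5 times the authors' estimate of the local noise. A strong window of a fusion library was fusion-dependent if it was also over 5 times the value without MNase in that purification. A window was MNase-independent if it was strong without MNase, and strong windows of a fusion that met neither rule were called intermediate. Windows whose centres lay within 2 nucleotides of each other were joined into a site. The coverage behind each ratio is not in the table, so the depth is unknown and no interval can be given.

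The region was covered well enough to list values above 0 at most of its nucleotides. In 25S-preLSUs, between 107 and 240 of the 1149 nucleotides were listed at 0 in a library, and in 27SB-preLSUs between 164 and 294 were. Local noise had a median of 1.19% for 25S-preLSUs and of 0.739% for 27SB-preLSUs. The mean TCR over the region was 0.691% for MNase-rpL5, 0.801% for MNase-rpL27 and 0.857% for MNase-rpL35, against 0.804% without MNase in the libraries of 25S-preLSUs. The library without MNase was thus within the range of the fusion libraries in 25S-preLSUs. In 25S rRNA of these libraries of 25S-preLSUs the mean TCR was 0.568%, 0.576%, 0.707% and 0.671% in that order. In 27SB-preLSUs the mean over the region was 0.689%, 0.766% and 0.707% with the fusions in the same order and 0.829% without MNase. There the library without MNase was above each fusion library.

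One library stood apart from the others of its purification. Across 251 nucleotides of the region above noise in at least 1 library, Spearman's rho between pairs of fusion libraries of 25S-preLSUs was 0.862 to 0.919, but between each of them and the library without MNase it was 0.341 to 0.557. In 27SB-preLSUs, pairs of fusion libraries gave 0.745 to 0.878, and pairs of a fusion library and the library without MNase gave 0.783 to 0.840. The low values were not particular to 18S rRNA. Over the nucleotides of 25S rRNA chosen in the same way, fusions and no MNase in 25S-preLSUs gave 0.455 to 0.594, and pairs of fusions there gave 0.814 to 0.871. These correlations are descriptions across positions that share the same libraries and the same local sequence. Every fusion-dependent call in 25S-preLSUs uses this library without MNase as its divisor, so values of both purifications are given for each site.

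**Figure D1:**
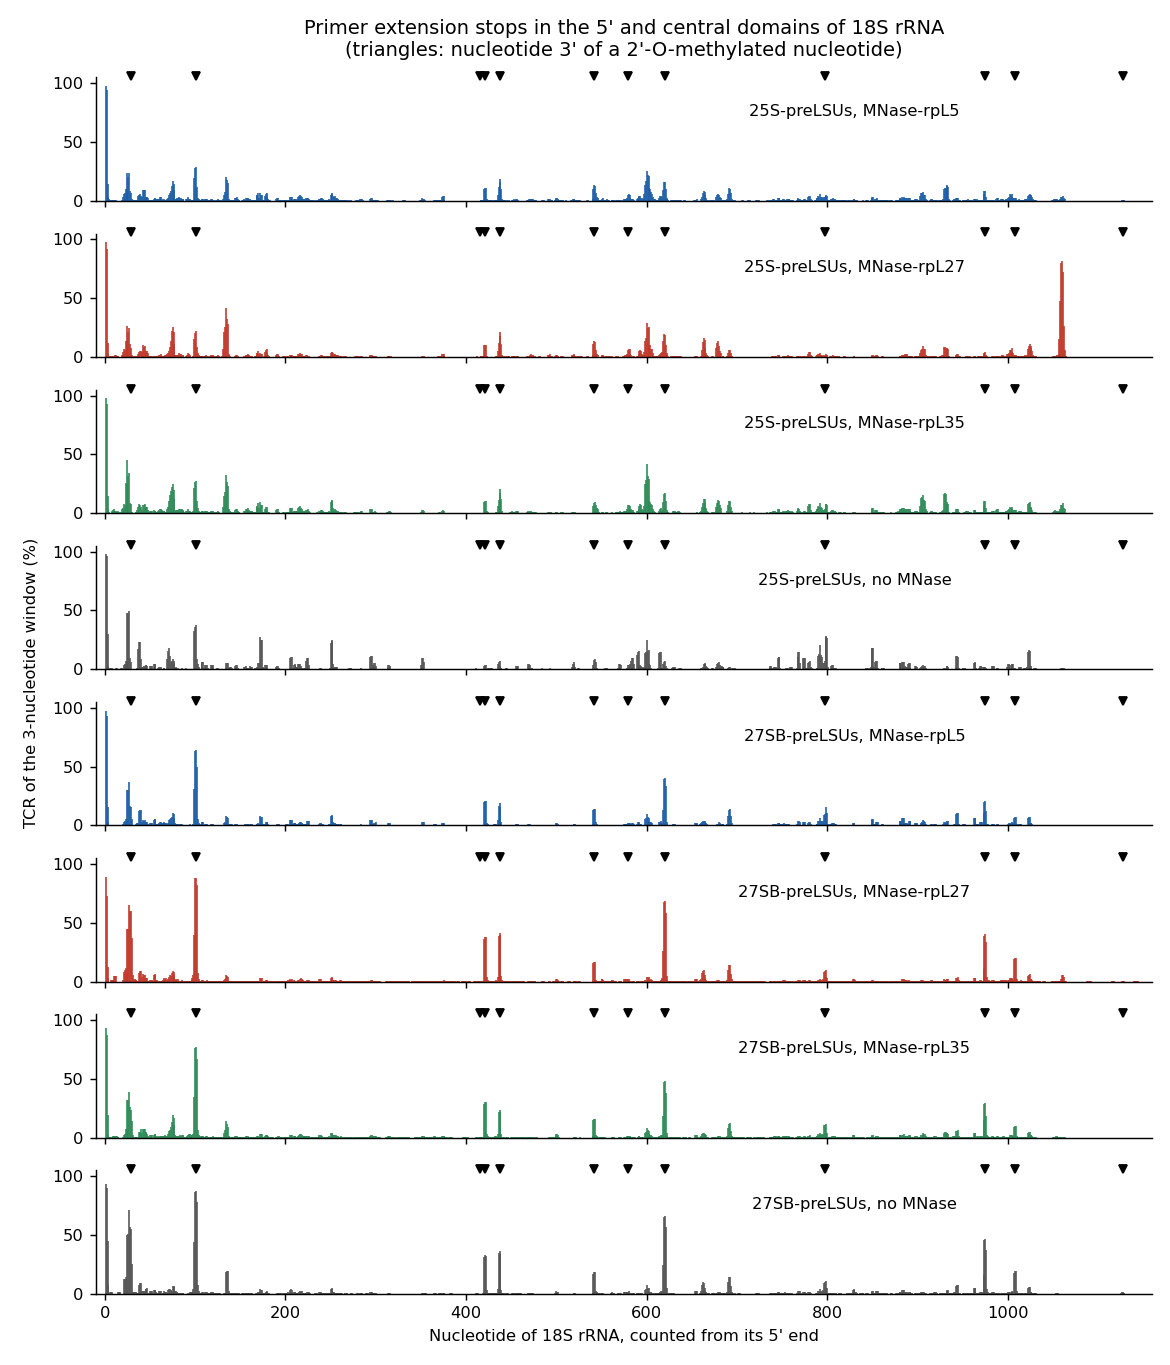
TCR of the 3-nucleotide window in percent (y axis) along nucleotides 1 to 1149 of 18S rRNA (x axis) in the 8 libraries, with triangles at the 12 nucleotides that lie 3′ of a 2′-O-methylated one. The bar at nucleotide 1060 reached 82.0% in 25S-preLSUs with MNase-rpL27, and the tall bars of 27SB-preLSUs at nucleotides 101 and 620 lay under triangles.

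At the 5′ end of 18S rRNA, where every full-length cDNA must end, the window at nucleotide 1 (chromosome XII, 457732) had 97.6% for MNase-rpL5, 97.6% for MNase-rpL27 and 98.1% for MNase-rpL35, against 97.9% without MNase in the libraries of 25S-preLSUs. In 27SB-preLSUs it had 97.1%, 88.5% and 93.4% with the fusions in the same order and 93.8% without MNase. The mature 5′ end was thus found in all 8 libraries. When the region was divided into consecutive stretches of 100 nucleotides from its 5′ end, the first stretch held the highest mean TCR in every library, 2.42% to 3.05% in 25S-preLSUs and 2.54% to 3.61% in 27SB-preLSUs. This stretch includes the 5′ end itself, where nucleotide 1 alone had 69.1% to 94.2% over the 8 libraries. The rank of the stretch without that nucleotide was not tested. The last 49 nucleotides, 1101 to 1149, were nearly free of stops, and the highest single value there reached 0.529% for 25S-preLSUs and 0.895% for 27SB-preLSUs. They lie just upstream of the next annotated modified nucleotide, 1191 (m1PsU). Windows centred within 2 nucleotides of the nucleotide directly 3′ of it were examined in each library. The highest of them had 60.5% to 85.9% in the libraries of 25S-preLSUs and 33.1% to 89.3% in those of 27SB-preLSUs. Fragments below a minimum length were not kept by the authors, and the part of that limit in the low values was not tested.

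The question of which stops depended on a fusion gave 4 sites in 25S-preLSUs, at nucleotides 135, 438, 930 and 1060. With MNase-rpL5, 1 window at 1 site passed, and 0.332% of all tested windows of the table passed that rule. With MNase-rpL27, 11 windows at 3 sites passed (background 0.839%), and with MNase-rpL35, 7 windows at 3 sites passed (background 0.527%). These are 0.0873%, 0.960% and 0.611% of the windows tested in the region, near or below the share over the whole table. No window of the region passed in 27SB-preLSUs with any fusion, where the whole table gave 0.154% for MNase-rpL5, 0.231% for MNase-rpL27 and 0.366% for MNase-rpL35.

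The highest fusion-dependent value was at nucleotide 1060 (chromosome XII, 456673). In 25S-preLSUs, its window had 3.64% for MNase-rpL5, 82.0% for MNase-rpL27 and 7.31% for MNase-rpL35, against 1.28% without MNase, at a local noise of 0.774%. The MNase-rpL27 library was 63.9 times the library without MNase and 11.2 times the next fusion. In 27SB-preLSUs the same window had 0.369% for MNase-rpL5, 5.57% for MNase-rpL27 and 0.356% for MNase-rpL35, against 0.212% without MNase, at a noise of 0.178%. This was below the minimum of 15%, yet MNase-rpL27 was again the highest library, at 26.3 times the library without MNase and 15.1 times the next fusion. The 2 purifications do not share a library, so the order of the fusions was measured separately in each. Between them, the value with MNase-rpL27 was 14.7 times higher in 25S-preLSUs.

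Stops around nucleotide 1060 were spread over a few nucleotides. In 25S-preLSUs with MNase-rpL27, the single values were 13.5% at nucleotide 1058, 38.3% at 1059, 62.6% at 1060, 21.9% at 1061 and 5.75% at 1062. In 27SB-preLSUs with MNase-rpL27, they were 0.113%, 0.508%, 1.95%, 3.19% and 0.515% at the same nucleotides. The peak was therefore 1 nucleotide further 3′ in 27SB-preLSUs, at 1061. Without MNase no single value from 1058 to 1062 was above 0.564% in 25S-preLSUs or 0.0987% in 27SB-preLSUs.

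At nucleotide 930 (chromosome XII, 456803) all 3 fusions lay above the library without MNase in both purifications. In 25S-preLSUs, the window had 11.2% for MNase-rpL5, 8.34% for MNase-rpL27 and 16.9% for MNase-rpL35, against 0.891% without MNase, at a noise of 0.847%. Only MNase-rpL35 reached the minimum of 15%, although the other fusions were 12.6 and 9.36 times the library without MNase. In 27SB-preLSUs, the window had 2.62% for MNase-rpL5, 1.65% for MNase-rpL27 and 4.52% for MNase-rpL35, against 0.628% without MNase, at a noise of 0.835%. The order of the 3 fusions was the same as in 25S-preLSUs, at 3.74 to 5.04 times lower values. A neighbouring stop at nucleotide 933 had single values of 10.9% for MNase-rpL5, 6.14% for MNase-rpL27 and 7.06% for MNase-rpL35, against 1.99% without MNase in the libraries of 25S-preLSUs. In 27SB-preLSUs the single values at 933 were 2.89%, 1.50% and 3.02% with the fusions and 2.51% without MNase. There MNase-rpL27 was below no MNase, unlike at 930.

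At nucleotide 135 (chromosome XII, 457598) the fusions and the library without MNase were in opposite order in the 2 purifications. In 25S-preLSUs, the window had 17.6% for MNase-rpL5, 32.4% for MNase-rpL27 and 26.6% for MNase-rpL35, against 5.22% without MNase, at a noise of 1.15%. In 27SB-preLSUs, it had 7.36% for MNase-rpL5, 4.42% for MNase-rpL27 and 11.9% for MNase-rpL35, against 19.6% without MNase, at a noise of 0.509%. Each fusion was above the library without MNase in 25S-preLSUs and below it in 27SB-preLSUs, where the stop was counted as MNase-independent. The single value at nucleotide 135 was 18.04% without MNase in 27SB-preLSUs, and without MNase the 2 nucleotides before it had 0.327% and 0.470%. At those 2 nucleotides the fusions of 27SB-preLSUs were above no MNase, with 1.53%, 1.08% and 3.31% at 133 and 1.48%, 0.808% and 2.83% at 134, so the opposite order held at 135 and not at 133 or 134. In 25S-preLSUs with MNase-rpL27, those 2 nucleotides had higher values, 14.9% at 133 and 6.32% at 134 beside 26.4% at 135.

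Nucleotide 438 (chromosome XII, 457295) lies next to a stop that needed no nuclease. In 25S-preLSUs, its window had 15.9% for MNase-rpL5, 17.5% for MNase-rpL27 and 17.1% for MNase-rpL35, against 2.44% without MNase, at a noise of 0.891%. In 27SB-preLSUs, it had 15.8% for MNase-rpL5, 39.8% for MNase-rpL27 and 21.9% for MNase-rpL35, against 33.9% without MNase, at a noise of 0.738%. The 3 fusions differed little from each other in 25S-preLSUs, and the window was strong without MNase in 27SB-preLSUs. The window includes nucleotide 437, directly 3′ of a 2′-O-methylated nucleotide. At 438 alone, the values were 8.73%, 10.0% and 10.9% with the fusions and 0.583% without MNase in 25S-preLSUs. In 27SB-preLSUs they were 2.67%, 4.19% and 2.93% with the fusions and 2.71% without MNase, while nucleotide 437 alone had 13.1%, 36.7% and 19.2% with the fusions and 31.9% without MNase. Of the 4 sites, 2, at nucleotides 135 and 438, thus coincided within 2 nucleotides with a stop of 27SB-preLSUs without MNase, and the call at 438 was lost when both libraries without MNase were required to be over 5 times lower. The site at 135 then passed only through its windows at nucleotides 132 and 133. At 133 the window without MNase had 0.446% in 25S-preLSUs and 0.903% in 27SB-preLSUs.

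**Figure D2:**
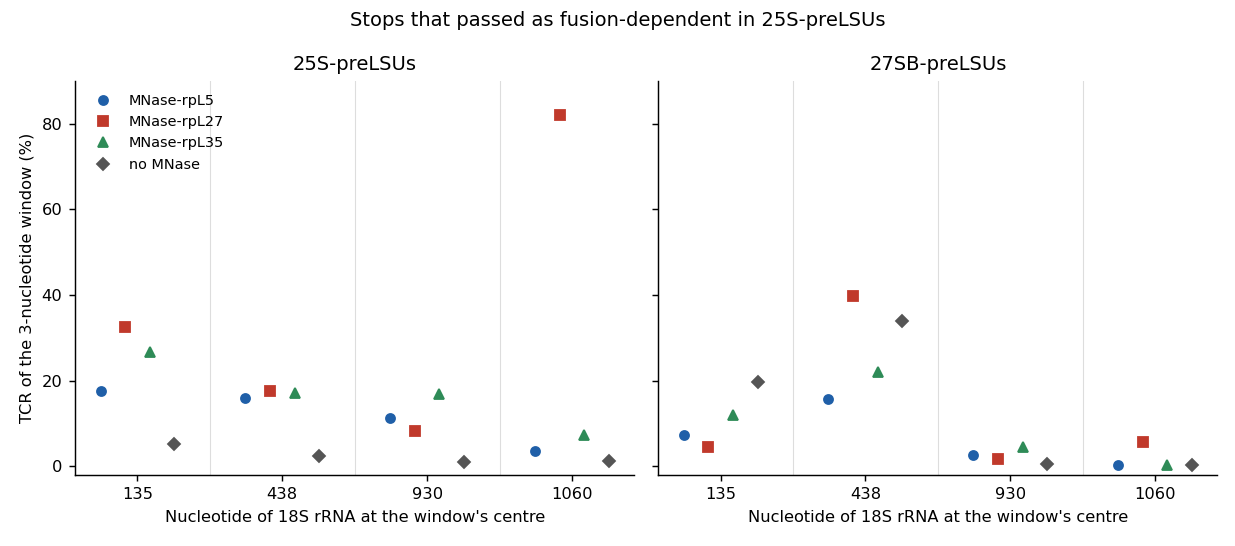
TCR of the 3-nucleotide window in percent (y axis) at the 4 sites that passed as fusion-dependent in 25S-preLSUs (x axis), for 25S-preLSUs on the left and 27SB-preLSUs on the right, with 1 point per library. At nucleotides 930 and 1060 the library without MNase was the lowest in both purifications, and at nucleotides 135 and 438 it was the lowest in 25S-preLSUs, whereas in 27SB-preLSUs it was at 19.6% and 33.9%.

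Some stops with a fusion were strong but less than 5 times the library without MNase. There were 1, 3 and 3 such intermediate sites with MNase-rpL5, MNase-rpL27 and MNase-rpL35 in 25S-preLSUs and 1, 0 and 1 in 27SB-preLSUs. Intermediate windows made up 0.524%, 0.698% and 1.13% of the windows tested in the region of 25S-preLSUs, against 0.293%, 0.293% and 0.371% over the whole table. In 27SB-preLSUs they made up 0.089%, 0% and 0.178% in the region, against 0.308%, 0.404% and 0.212% over the whole table. The window at nucleotide 75 had 17.0% for MNase-rpL5, 25.7% for MNase-rpL27 and 24.7% for MNase-rpL35, against 8.81% without MNase in the libraries of 25S-preLSUs. The values of 27SB-preLSUs were 10.8%, 8.79% and 19.1% with the fusions in the same order and 6.52% without MNase. All fusions were above no MNase there in both purifications, by up to 2.92 times in 25S-preLSUs and 2.93 times in 27SB-preLSUs. The window at nucleotide 663 had 8.59%, 16.5% and 12.3% with the fusions and 4.91% without MNase in 25S-preLSUs, and 3.96%, 9.93% and 4.08% with the fusions and 9.09% without MNase in 27SB-preLSUs. At nucleotide 663 the order of the libraries thus differed between the purifications.

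Stops without MNase were more numerous than fusion-dependent ones. In 25S-preLSUs, 33 windows at 12 sites were strong without MNase, against 3.06% of all tested windows of the table and 2.88% of those of the region. In 27SB-preLSUs, 36 windows at 10 sites were, against 2.5% over the whole table and 3.20% in the region. Of these, 3 were shared within 2 nucleotides, which is 3 of the 12 sites of 25S-preLSUs and 3 of the 10 sites of 27SB-preLSUs. These were the 5′ end, the stop at nucleotide 26 and the stop at nucleotides 100 and 101. At nucleotide 26 (chromosome XII, 457707), the window had 20.2%, 21.2% and 31.8% with MNase-rpL5, MNase-rpL27 and MNase-rpL35 and 48.1% without MNase in the libraries of 25S-preLSUs. In 27SB-preLSUs it had 29.7%, 44.6% and 31.8% with the fusions and 50.9% without MNase, so the library without MNase was the highest in both.

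The stops of 27SB-preLSUs followed the 2′-O-methyl groups. In the region, 12 nucleotides lie directly 3′ of a known 2′-O-methylated nucleotide. In 25S-preLSUs the window at 1, 2, 2 and 1 of these 12 was strong with MNase-rpL5, MNase-rpL27, MNase-rpL35 and no MNase. In 27SB-preLSUs it was strong at 5, 8, 7 and 8 of the 12 in the same order of libraries. Among all tested windows of the table, strong ones were 1.72%, 2.07%, 2.22% and 3.06% in 25S-preLSUs and 1.83%, 2.6%, 1.85% and 2.5% in 27SB-preLSUs. Of the 12 MNase-independent sites of 25S-preLSUs, 1 included such a nucleotide, against 8 of the 10 sites of 27SB-preLSUs. The exceptions in 27SB-preLSUs were the 5′ end and nucleotide 135. A further stop away from these groups was joined to one beside them, since the site named at nucleotide 26 had single values without MNase of 48.4% at 26 and 24.0% at 29 in 27SB-preLSUs.

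The highest of these stops was at nucleotide 101 (chromosome XII, 457632). Its window had 28.6% for MNase-rpL5, 21.8% for MNase-rpL27 and 27.7% for MNase-rpL35, against 37.6% without MNase in the libraries of 25S-preLSUs. The values of 27SB-preLSUs were 64.5%, 88.2% and 77.0% with the fusions and 87.1% without MNase. At nucleotide 101 by itself the gap was wider, with 5.25% to 10.2% in the 4 libraries of 25S-preLSUs and 47.2% to 80.5% in those of 27SB-preLSUs. In 25S-preLSUs most of the window without MNase therefore came from the neighbouring nucleotides.

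At nucleotide 620 (chromosome XII, 457113), the window had 16.0% for MNase-rpL5, 19.1% for MNase-rpL27 and 17.2% for MNase-rpL35, against 6.89% without MNase in the libraries of 25S-preLSUs. In 27SB-preLSUs it had 40.6%, 68.1% and 47.9% with the fusions and 66.1% without MNase. At nucleotide 975 (chromosome XII, 456758), it had 8.41%, 3.90% and 10.2% with the fusions and 2.26% without MNase in 25S-preLSUs, and 20.6%, 40.1% and 29.6% with the fusions and 46.7% without MNase in 27SB-preLSUs. At both nucleotides all 4 libraries of 27SB-preLSUs were above all 4 libraries of 25S-preLSUs.

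At nucleotide 29 (chromosome XII, 457704), the window had 7.15%, 7.79% and 7.54% with the fusions and 6.17% without MNase in 25S-preLSUs, against 15.4%, 59.9% and 23.7% with the fusions and 55.2% without MNase in 27SB-preLSUs. At nucleotide 421 (chromosome XII, 457312), it had 10.9%, 10.2% and 10.6% with the fusions and 3.39% without MNase in 25S-preLSUs, against 20.8%, 38.1% and 30.4% with the fusions and 32.8% without MNase in 27SB-preLSUs. At nucleotide 1008 (chromosome XII, 456725), it had 2.70%, 1.36% and 2.75% with the fusions and 0.816% without MNase in 25S-preLSUs, against 7.13%, 20.0% and 9.86% with the fusions and 19.4% without MNase in 27SB-preLSUs. At these 3 nucleotides, too, the lowest library of 27SB-preLSUs was above the highest of 25S-preLSUs. At nucleotide 437 (chromosome XII, 457296) they overlapped, with 19.0%, 21.0% and 20.5% with the fusions and 6.65% without MNase in 25S-preLSUs, and 19.0%, 41.4% and 23.7% with the fusions and 36.4% without MNase in 27SB-preLSUs. The smallest gap was at nucleotide 542 (chromosome XII, 457191), with 13.2%, 13.8% and 8.95% with the fusions and 8.24% without MNase in 25S-preLSUs, and 14.1%, 16.9% and 16.1% with the fusions and 18.4% without MNase in 27SB-preLSUs.

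Over the 8 nucleotides that were strong without MNase in 27SB-preLSUs, the libraries kept an order. In 27SB-preLSUs, MNase-rpL27 and no MNase were both above MNase-rpL35, and MNase-rpL35 was above MNase-rpL5, at 8 of 8. MNase-rpL27 was above no MNase at 6 of 8. The medians over the 8 nucleotides in 25S-preLSUs were 12.1%, 12.03% and 10.4% with MNase-rpL5, MNase-rpL27 and MNase-rpL35 and 6.41% without MNase, and each fusion was above no MNase at 7 of 8. At the same nucleotides 27SB-preLSUs had medians of 19.8% for MNase-rpL5, 40.7% for MNase-rpL27 and 26.7% for MNase-rpL35, against 41.6% without MNase. Because the 8 nucleotides come from the same libraries, they are not independent measures of a library. The 8 were picked by the value without MNase in 27SB-preLSUs, so their height in that library is a description.

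Against 25S-preLSUs, 27SB-preLSUs were higher at 8 of the 8 without MNase, by 2.23 to 23.7 times with a median of 9.26. With the fusions they were higher at 7 (MNase-rpL5), 8 (MNase-rpL27) and 8 (MNase-rpL35) of the 8, and the median ratios were 2.20, 3.88 and 2.82. The ratio without MNase follows in part from the choice of the 8 by the library without MNase of 27SB-preLSUs. The fusion libraries were not used in the choice, but those of 27SB-preLSUs resembled that library, with rho of 0.783 to 0.840 over the region. Their ratios are therefore not free of the choice, and its part in them was not tested.

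The other 4 of the 12 nucleotides, 415, 579, 797 and 1127, were strong in no library. Their windows had at most 7.23% for 25S-preLSUs and 11.0% for 27SB-preLSUs. At nucleotide 579 each library was higher in 25S-preLSUs, with 4.91%, 5.91% and 7.23% with the fusions and 3.23% without MNase. The values of 27SB-preLSUs there were 1.66%, 2.20% and 1.67% with the fusions and 1.83% without MNase. At nucleotide 797 each library was higher in 27SB-preLSUs, and at 415 and 1127 the direction differed between libraries. The highest of the 8 values at nucleotide 797 was 11.0%, with MNase-rpL35 in 27SB-preLSUs, and at 415 it was 0.572%, without MNase in 25S-preLSUs. A strong stop was thus not found at 415, 579 or 797, although at 797 the libraries of 27SB-preLSUs had 8.78% to 11.0% at a noise of 0.727%. Nucleotide 1127 lies in the last 49 nucleotides, which were nearly free of stops, so its low value cannot be read in this way. Windows 3′ of 9 pseudouridines were strong in none of the 8 libraries, and the highest of these values was 10.46%, without MNase in 25S-preLSUs.

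**Figure D3:**
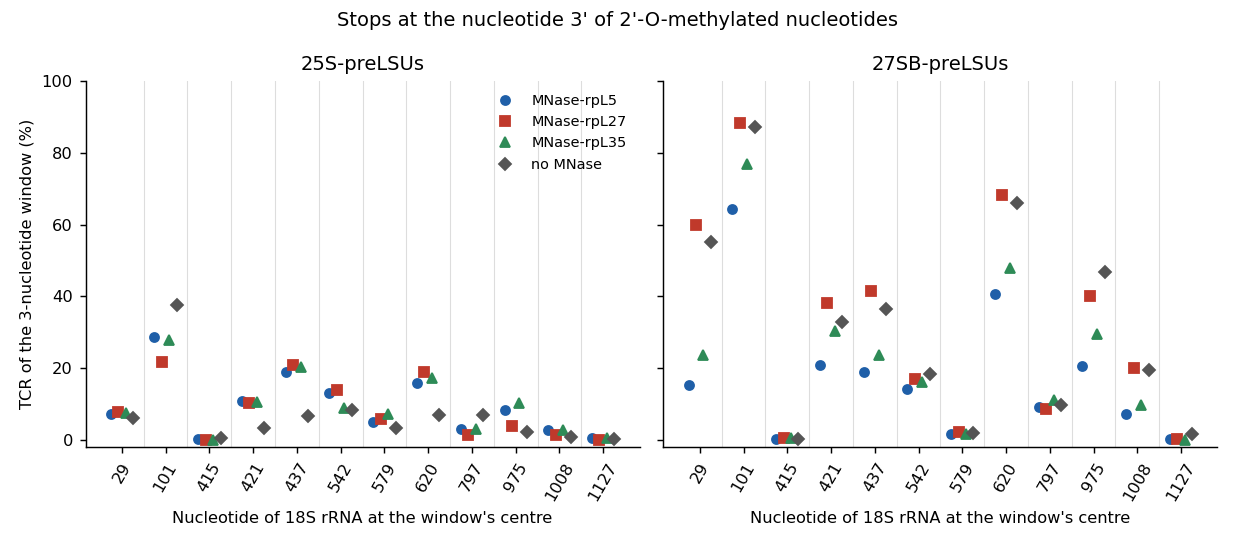
TCR of the 3-nucleotide window in percent (y axis) at the 12 nucleotides directly 3′ of a 2′-O-methylated nucleotide (x axis), for 25S-preLSUs on the left and 27SB-preLSUs on the right, with 1 point per library. Values reached 37.6% in 25S-preLSUs and 88.2% in 27SB-preLSUs, both at nucleotide 101.

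Another group of stops was strong in 25S-preLSUs without MNase and not in 27SB-preLSUs. These were 9 of the 12 MNase-independent sites of 25S-preLSUs, at nucleotides 38, 70, 173, 251, 601, 791, 799, 850 and 1023. Without MNase they had 12.8% to 28.3% in 25S-preLSUs at the windows named, and 2.35% to 7.64% in 27SB-preLSUs, a ratio of 2.92 to 7.86. This gap follows from the choice of the 9 by these libraries and is only a description. At nucleotide 791 the site was called from a neighbouring window. At 8 of the 9 the library without MNase of 25S-preLSUs was the highest of all 8 libraries. The fusion libraries of the same purification were all below it at these 8 stops. The 9 were chosen for a strong value in this library, which favours its rank. Its place above the fusion libraries is therefore also only a description.

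At nucleotide 799 (chromosome XII, 456934) the window had 4.31% for MNase-rpL5, 1.96% for MNase-rpL27 and 7.49% for MNase-rpL35, against 28.3% without MNase in the libraries of 25S-preLSUs. The values of 27SB-preLSUs were 10.6%, 3.53% and 3.91% with the fusions and 4.96% without MNase. At nucleotide 173 (chromosome XII, 457560) it had 5.10%, 2.37% and 6.63% with the fusions and 24.97% without MNase in 25S-preLSUs, and 7.30%, 2.73% and 3.12% with the fusions and 3.29% without MNase in 27SB-preLSUs. At both nucleotides the fusions of 25S-preLSUs lay in or near the range of 27SB-preLSUs, and among the fusions MNase-rpL27 was the lowest in each purification. Nucleotides 251 and 850 had 24.4% and 18.5% without MNase in 25S-preLSUs, against 4.12% and 2.35% without MNase in 27SB-preLSUs.

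The exception was nucleotide 601 (chromosome XII, 457132). Its window had 21.7% for MNase-rpL5, 24.9% for MNase-rpL27 and 31.2% for MNase-rpL35, against 15.2% without MNase in the libraries of 25S-preLSUs. In 27SB-preLSUs it had 6.87%, 3.86% and 6.38% with the fusions and 5.04% without MNase. Here all 4 libraries of 25S-preLSUs were above all 4 of 27SB-preLSUs, and within 25S-preLSUs each fusion was above no MNase. It was the only one of the 9 with that order.

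**Figure D4:**
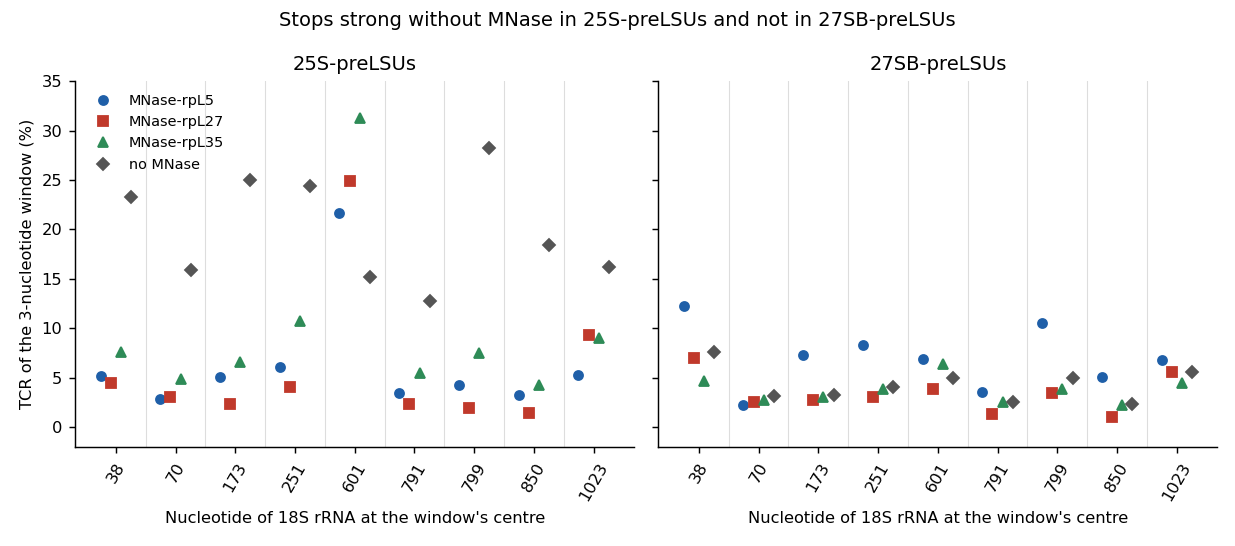
TCR of the 3-nucleotide window in percent (y axis) at the 9 sites that were strong without MNase in 25S-preLSUs and not in 27SB-preLSUs (x axis), for 25S-preLSUs on the left and 27SB-preLSUs on the right, with 1 point per library. The sites were chosen in part by the library without MNase of 25S-preLSUs, which favours its rank. That library was the highest of the 8 at each nucleotide except 601, where MNase-rpL35 of 25S-preLSUs had 31.2%.

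The purifications were then compared window by window for the same kind of library. A difference was called where at least 1 library of the pair was strong, their ratio was above 2 and their difference was larger than either noise estimate. With MNase-rpL5, 7 windows were higher and 9 lower in 25S-preLSUs than in 27SB-preLSUs (backgrounds 0.637% and 0.599%). With MNase-rpL27, 17 were higher and 23 lower (backgrounds 1.16% and 1.55%). With MNase-rpL35, 17 were higher and 15 lower (backgrounds 1.03% and 0.605%). Without MNase, 24 were higher and 29 lower (backgrounds 2.09% and 1.33%). As shares of the windows tested in the region, the higher windows were 0.616%, 1.51%, 1.50% and 2.15% and the lower ones 0.792%, 2.05%, 1.33% and 2.60% in this order of libraries. The 2 libraries that held no nuclease thus differed at more windows than any pair of fusion libraries.

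The direction of these differences split by position. Only 60 of the 1149 windows of the region, 5.22%, lay within 2 nucleotides of a nucleotide 3′ of a 2′-O-methylated one. Of the windows lower in 25S-preLSUs, 9 of 9 with MNase-rpL5, 22 of 23 with MNase-rpL27, 15 of 15 with MNase-rpL35 and 26 of 29 without MNase were among these 60. Of the windows higher in 25S-preLSUs, 0 of 7, 0 of 17, 0 of 17 and 2 of 24 were, in the same order. Stops near 2′-O-methyl groups were therefore nearly all of those that were stronger in 27SB-preLSUs, in libraries with and without nuclease. A difference could be called only where a library was strong, so the share of all 1149 windows is not the only base. Of the 10 MNase-independent sites of 27SB-preLSUs, 8 already included a nucleotide 3′ of a 2′-O-methylated one. The split by direction thus in part repeats where the strong stops of 27SB-preLSUs lay. The culture volume, the tagged factor and the library differ together between the purifications and cannot be told apart, and neighbouring windows share nucleotides.

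**Figure D5:**
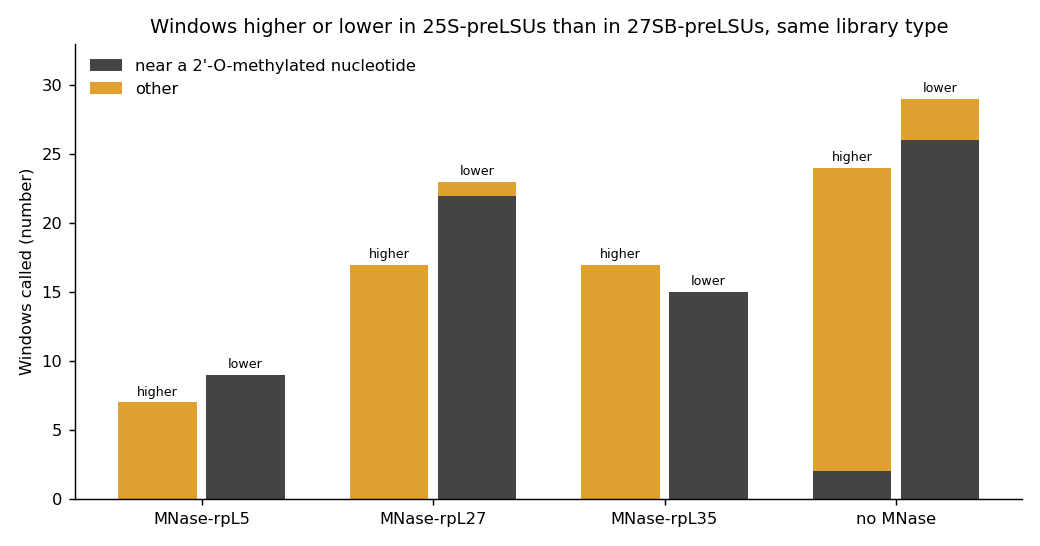
Number of windows of the region (y axis) called higher or lower in 25S-preLSUs than in 27SB-preLSUs, for each of the 4 kinds of library (x axis), split by whether the window lay within 2 nucleotides of a nucleotide 3′ of a 2′-O-methylated one. Lower windows were near such nucleotides in 26 of 29 cases without MNase, and higher windows in 2 of 24.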

How the data were processed

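Random primer extension was measured in 8 libraries, 1 for each combination of 2 TAP purifications and 4 MNase states. Reads were mapped by the authors against the rDNA region with Bowtie2 (version: not given in the sources used here), and the same number of reads was kept for every library after filters on insert length and mapping quality. Random barcodes were used to correct for amplification. The submitters' processing notes name R64 and sacCer3. The deposited values are, as the authors made them, the fraction of unique cDNA fragments spanning a nucleotide whose end lies on it, from barcode-corrected estimates, and a noise fraction, the highest TCR near the nucleotide in virtual datasets of the same purification. Total counts and coverage are not in these tables, so depth and precision are unknown.

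Fractions were converted to percent. A window is 100 times 1 minus the product of 1 minus TCR over 3 nucleotides, a reading of the methods' formula, whose text omits the inner subtraction. Noise was taken at the centre. Background percentages are shares of all tested windows, those above 0 in at least 1 of the libraries compared. The code was tested on simulated data. Positions of 12 2′-O-methylated nucleotides and 9 pseudouridines are textbook knowledge, since the 4 modified nucleotides of 18S rRNA that the table annotates lie outside the region. Chromosome positions were computed from RDN18-1 of R64, the first of many nearly identical copies to which reads cannot be assigned. No genome sequence was used here, so bases were not analysed.

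Named were all fusion-dependent sites, MNase-independent sites up to the 10 highest per purification, intermediate sites up to 5 per purification and the 5′ end. Nucleotides 70 and 1023, the 1% sites of the closing section and nucleotide 933 were named after their values were seen. The members, lists and rules were chosen with earlier results of these data known. Alternatives varied the window, the minimum TCR, the folds and the noise value. Python 3.11.15, numpy 2.4.6, pandas 2.3.3, scipy 1.17.1 and matplotlib 3.10.9 were used.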

Additional observations from a re-analysis of the deposited data

Results flagged for a closer look

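At 3 MNase-independent or fusion-dependent stops every fusion library lay above the library without MNase in 25S-preLSUs and every one lay below it in 27SB-preLSUs. The difference between the purifications was not tested, since each condition was 1 library. At nucleotide 135 the mean of the 3 fusions minus no MNase was 20.3 percentage points in 25S-preLSUs and -11.7 points in 27SB-preLSUs. At nucleotide 542 it was 3.75 points in 25S-preLSUs and -2.65 points in 27SB-preLSUs. There MNase-rpL35 of 25S-preLSUs had 8.95% against 8.24% without MNase, closer together than the local noise of 1.53%. At the neighbouring nucleotide 543 alone, 25S-preLSUs had 3.70%, 3.59% and 3.37% with the fusions and 5.08% without MNase. At nucleotide 975 the mean of the 3 fusions minus no MNase was 5.25 points in 25S-preLSUs and -16.6 points in 27SB-preLSUs. The 3 fusions of a purification share 1 library without MNase, so a single library sets the sign at each nucleotide.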

How the results depend on the processing

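No replicate block was fitted, since the labels carry no replicate numbers, and with 1 library per condition no replicate could be left out. The 4 kinds of library were also taken as pairs, an analysis chosen after seeing the data. The exact two-sided permutation test then gave its smallest possible p of 0.125 at 16 of the 26 stops examined. These stops were named largely by their values in the same libraries, and neighbouring stops with overlapping windows were each counted. The 16 are therefore not all separate stops, and their number is only a description. Of 44 alternative counts, 30 stayed within 1.5 times the reported count. The 4 fusion-dependent sites of 25S-preLSUs became 8 at a minimum TCR of 10%, 2 at 25%, 8 at over 3 times no MNase and 3 when both libraries without MNase had to be over 5 times lower. With a minimum of 1%, chosen after seeing the data, 10 sites of 25S-preLSUs passed and 4 of 27SB-preLSUs, the 4 being at nucleotides 133, 315, 930 and 1061, and all but 315 lay within 2 nucleotides of a reported site of 25S-preLSUs and were called with a fusion that also called that site, MNase-rpL35 at 133 and 930 and MNase-rpL27 at 1061. Under each other setting tried the count of 27SB-preLSUs stayed at 0. MNase-independent sites of 25S-preLSUs fell to 5 at a minimum of 25%, against 12. Windows that differed between purifications came to 88 when summed over the 3 fusions, so that a window can count more than once. This sum was 28 for the stop nucleotide alone, 150 for a window of 5 nucleotides, 58 at a minimum of 25% and 42 without windows near 2′-O-methylated nucleotides. Without MNase the 53 windows became 17, 93, 22 and 25 under the same changes. The last change and the rule on both libraries without MNase were also chosen after seeing the data. Apart from fewer windows passing a higher minimum or being left out, the cause of these shifts was not tested. The fold over no MNase does not enter the MNase-independent and between-purification counts, which have no value for it. For the differences at single stops, only the fusion with the highest value at each stop and purification was taken, and neighbouring stops with overlapping windows were each counted. Of 208 alternative values of this fusion minus no MNase difference, 149 stayed within 1.5 times and 59 moved more. Of these 59, 8 changed sign, at nucleotides 1, 100, 101 and 663, and none of them at a difference called fusion-dependent. Since coverage is unknown, values at nucleotides with few fragments cannot be told from firmer ones.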
